A study of Sus scrofa with 9 samples.

Results

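The miR-34 and miR-449 family was examined across porcine eggs, fertilized eggs and sperm. Its members were all small RNA names in the deposited table that, once the species prefix was dropped, began with miR-34 or miR-449 followed by an optional letter. The rule took 13 of 1313 names, 9 of them miR-34 and 4 miR-449, and used no measured value. They covered miR-34a, miR-34b, miR-34c, miR-34d, miR-449a and miR-449b. Of the 13 names, 2 carried the pig prefix (ssc) and 11 the prefix of another mammal, namely opossum (mdo), dog (cfa), rhesus macaque (mml), horse (eca), mouse (mmu) or rabbit (ocu). Many names ended in a suffix such as R+1, L-1 or 1ss10CT, which was read here as marking a variant of the listed miRNA (an isomiR). The meaning of the suffixes was not given in the sources used here, nor was the arm of names without 5p or 3p. Mature sequences were not used here.

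Small RNA was sequenced from 3 libraries each of MII oocytes, PN embryos and sperm, all untreated. MII oocytes are eggs held at the second meiotic metaphase, and here they were matured in vitro from the ovaries of postpubertal gilts and freed of cumulus cells. PN embryos are 1-cell embryos with pronuclei, obtained by in vitro fertilization with purified semen of Landrace boars. The sequenced sperm was fresh, purified and from adult Large White boars, so the sperm profiled was of another breed than the sperm that fertilized the eggs. Oocytes and embryos were pooled, and no source used here says that the libraries of a group came from separate animals or cultures, so p-values measure the spread between these libraries, which may be technical.

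miRNAs are short RNAs that guide Argonaute proteins to matching sites in mRNAs, chiefly through their seed near the 5′ end. miR-34a, miR-34b, miR-34c and the miR-449 miRNAs are studied as 1 family for a seed that they share on 1 arm. Names of the opposite arm, such as ocu-miR-34b-3p_1ss10CT (37.3% of family counts in sperm), need not carry it. The members here were taken by name, so their sum is not the level of 1 seed. Which names carry the shared seed was not tested. miR-34a has its own gene and is a classical target of the tumour suppressor p53. miR-34b and miR-34c are cut from a common transcript, and miR-449a and miR-449b from a cluster inside an intron of CDC20B. The last 4 are known from multiciliated epithelia and from spermatocytes and spermatids, and miR-34c is a well-studied sperm miRNA.

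In the RefSeq gene table of Sscrofa11.1, the build also named by the submitters, 1 of 315 miRNA genes had a pig miR-34 or miR-449 name among its synonyms. Gene symbols were not searched. This was MIR34C-1, which spans 80 bases at chr9:39280278-39280357. It lies within the spans of BTG4 (chr9:39253116-39281327), a factor of maternal mRNA clearance, and of C9H11orf88 (chr9:39278888-39304816). The table does not give exons or strands, so its place relative to the exons of these genes was not determined.

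Levels are given in CPM, the count of a name divided by the total of its library and scaled to 1000000. Library totals were 289183 to 381674 counts in MII oocytes, 422630 to 771001 in PN embryos and 1640492 to 2455102 in sperm. The groups did not overlap in depth, and depth and group therefore cannot be told apart. Values below 5 counts were listed only irregularly, and a listed 0 was therefore read as up to 5 counts, which is 13.1 to 17.3 CPM in MII oocytes, 6.49 to 11.8 CPM in PN embryos and 2.04 to 3.05 CPM in sperm. Adapter ligation favours some sequences over others, so an order of CPM between names is an order of reads rather than of molecules. In bulk libraries fewer cells of a type and less RNA per cell cannot be told apart.

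The defining markers of the labelled cells were checked with short lists. Among oocyte and early embryo miRNAs, miR-371 carried nearly the whole list, at a summed 1089 to 1286 CPM in MII oocytes and 1106 to 1267 CPM in PN embryos, and all 4 miRNAs of the list were at 0 in sperm (1 was listed in MII oocytes and 2 in PN embryos). Genital tract epithelium miRNAs (the miR-200 and miR-141 group) summed to 1359 to 1690 CPM in MII oocytes, 1372 to 1556 CPM in PN embryos and 6391 to 6905 CPM in sperm. All 5 miRNAs of that list were listed in sperm and 4 in the other groups (miR-429 was at 0), and of its 6 tested names 4 were called higher there than in MII oocytes and 1 lower (42.2% and 40.7% over all names). Blood and leukocyte miRNAs summed to 166 to 314 CPM in MII oocytes, 837 to 875 CPM in PN embryos and 268 to 380 CPM in sperm. Of that list 5 of 6 miRNAs were listed in MII oocytes (miR-223 was at 0), 5 in PN embryos (miR-150 was at 0) and 6 in sperm. Follicle miRNAs summed to 851 to 1360 CPM in MII oocytes, 1074 to 1172 CPM in PN embryos and 703 to 772 CPM in sperm, with all 5 listed in every group. Of the 6 follicle names tested, 1 (cfa-miR-383) was called higher in sperm than in MII oocytes and 5 lower, with a median log2 fold change of -4.29. The part of such cells in the results that follow was not tested.

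The family held 0.215% ± 0.0067 (SD, n = 3) of all counts in MII oocytes, 0.244% ± 0.0088 in PN embryos and 15.2% ± 0.120 in sperm. On the CPM scale these were 2154 ± 67.1, 2435 ± 88.5 and 152396 ± 1197. The sum in sperm was 70.7 times that in MII oocytes and 62.6 times that in PN embryos, and the sum in PN embryos was 1.13 times that in MII oocytes. As a sum over chosen members it was given no test. All 13 names were listed in each sperm library, whereas 6 were listed in each MII oocyte library and 5, 7 and 7 in the PN embryo libraries. There were 5 names listed throughout the 9 libraries, and 6 names were listed in the 3 sperm libraries and at 0 elsewhere. Where the miR-205 names were left out of the library totals, the log2 ratio of the family sum was 5.22 for sperm against MII oocytes and 5.10 for sperm against PN embryos, compared with 6.14 and 5.97 with them.

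**Figure D1:**
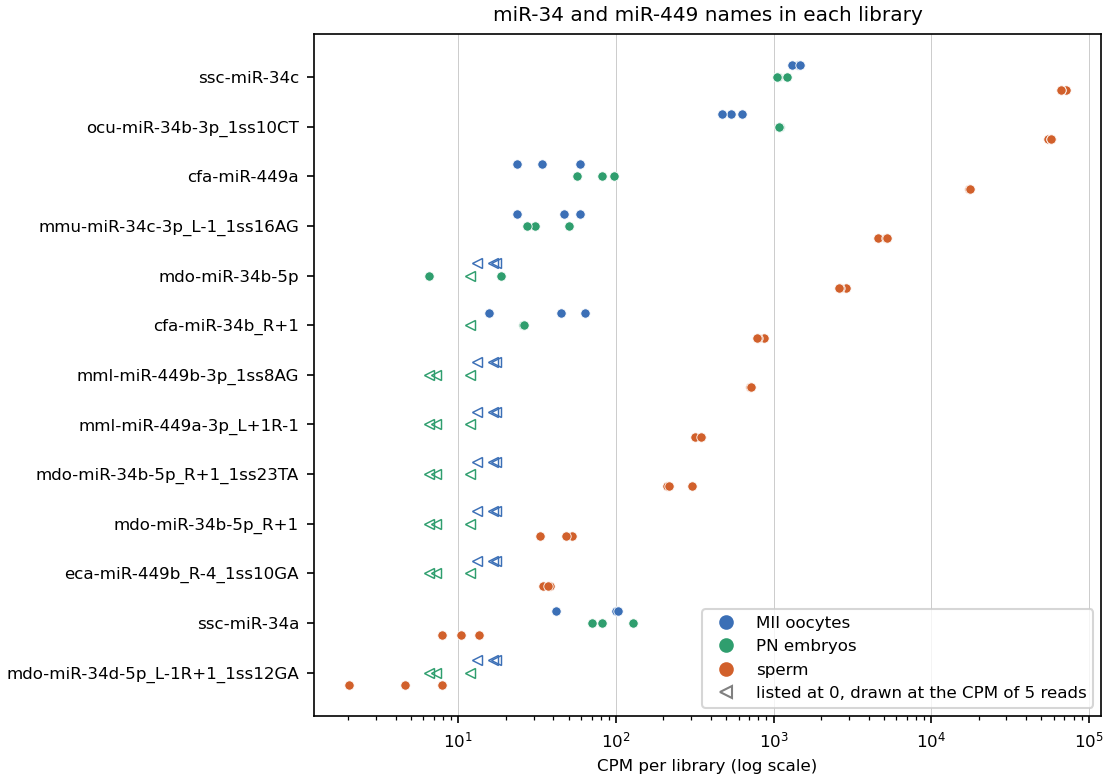
CPM of each of the 13 family names in each of the 9 libraries (x axis, log scale), with names ordered by their mean in sperm. Filled points are libraries with a listed value, and open triangles are libraries listed at 0, drawn at the CPM of 5 counts. ssc-miR-34a is the name whose sperm points (7.92 to 13.4 CPM) lie below its oocyte and embryo points.

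miR-34c had the highest mean of the family in every group, although in PN embryos its libraries overlapped those of miR-34b-3p. ssc-miR-34c was at 1425, 1317 and 1466 CPM in the MII oocyte libraries and at 1067, 1221 and 1053 CPM in the PN embryo libraries. In the sperm libraries it was at 71231, 66453 and 66992 CPM, a mean of 68225 ± 2617 (SD, n = 3), which ranked it 3 among all names in sperm. The libraries of the 3 groups did not overlap, with PN embryos lowest. By the quasi-likelihood test of edgeR over 587 names, sperm exceeded MII oocytes with a log2 fold change of 5.66 ± 0.07 (SE, q = 2.86e-13) and PN embryos with one of 6.06 ± 0.07 (q = 1.73e-13). The 3p name of miR-34c, mmu-miR-34c-3p_L-1_1ss16AG, was at 23.6, 46.8 and 58.8 CPM in MII oocytes, at 30.8, 27.3 and 50.6 CPM in PN embryos and at 4625, 5195 and 5224 CPM in sperm. MII oocytes and PN embryos overlapped for this name, and sperm stood apart from both, with a log2 fold change of 6.98 ± 0.20 (edgeR q = 1.97e-10) and 7.19 ± 0.19 (edgeR q = 7.43e-11).

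miR-34b was carried mainly by its 3p arm. ocu-miR-34b-3p_1ss10CT was at 537, 632 and 470 CPM in MII oocytes, at 1096, 1080 and 1087 CPM in PN embryos, and at 55297, 57659 and 57354 CPM in sperm, rank 4 of all names there. The 3 groups did not overlap, and the PN embryo libraries had a mean of 1088 ± 7.71 CPM (SD, n = 3). That SD is smaller than counting error alone gives for their 463, 751 and 838 counts, so it is no measure of precision. Sperm was higher than MII oocytes by a log2 fold change of 6.76 ± 0.09 (edgeR q = 4.71e-13) and higher than PN embryos by 5.84 ± 0.08 (edgeR q = 8.42e-13). The other 4 miR-34b names were much rarer. mdo-miR-34b-5p was at 0 in all MII oocyte libraries, at 0, 13 and 5 counts (0, 18.7 and 6.49 CPM) in PN embryos, and at 2897, 2627 and 2586 CPM in sperm. cfa-miR-34b_R+1 was at 15.7, 63.5 and 45.0 CPM in MII oocytes, at 0, 25.9 and 25.9 CPM in PN embryos, and at 868, 793 and 785 CPM in sperm. Both stood higher in every sperm library than in any other library. The variants mdo-miR-34b-5p_R+1_1ss23TA and mdo-miR-34b-5p_R+1 were at 245 ± 52.4 and 44.6 ± 10.3 CPM in sperm (SD, n = 3) and at 0 in the other 6 libraries. In sperm, mdo-miR-34b-5p gave 0.0477 ± 0.0041 counts (SD, n = 3) for each count of the 3p name.

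Among names listed in both groups, miR-449a had the largest fold change between sperm and MII oocytes. cfa-miR-449a was at 13, 7 and 17 counts in the MII oocyte libraries, which is 34.1, 23.4 and 58.8 CPM. In PN embryos it was at 24, 57 and 75 counts, or 56.8, 82.0 and 97.3 CPM. In sperm it was at 17380, 17469 and 17598 CPM, a mean of 17482 ± 110 (SD, n = 3), rank 19 of all names. Its libraries overlapped between MII oocytes and PN embryos and lay far above both in sperm. Sperm exceeded MII oocytes with a log2 fold change of 8.89 ± 0.16 (edgeR q = 6.22e-12) and PN embryos with one of 7.87 ± 0.14 (edgeR q = 3.99e-12). The 3p name mml-miR-449a-3p_L+1R-1 was at 335 ± 16.2 CPM in sperm and at 0 elsewhere. miR-449b was listed in sperm alone, where mml-miR-449b-3p_1ss8AG was at 709 ± 4.12 CPM and eca-miR-449b_R-4_1ss10GA at 36.7 ± 1.92 CPM. The 3p name of miR-449b thus gave 19.4 ± 1.03 counts for each count of the name without an arm, whereas the 3p name of miR-449a gave 0.0191 counts for each count of cfa-miR-449a.

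miR-34a ran opposite to the rest. ssc-miR-34a was at 41.9, 100 and 104 CPM in MII oocytes (16, 30 and 30 counts) and at 128, 82.0 and 70.0 CPM in PN embryos. In sperm it was at 7.92, 10.4 and 13.4 CPM, from 13, 18 and 33 counts in the deepest libraries. Every sperm library lay below every oocyte and embryo library, and the latter overlapped each other. Sperm was lower than MII oocytes by a log2 fold change of -2.83 ± 0.43 (edgeR q = 1.23e-04) and lower than PN embryos by -2.95 ± 0.40 (edgeR q = 5.07e-05), about 7.12-fold and 7.70-fold. The rarest member, mdo-miR-34d-5p_L-1R+1_1ss12GA, was at 13, 8 and 5 counts in sperm (7.92, 4.62 and 2.04 CPM) and at 0 in the other libraries. These levels lie below or within what a listed 0 allows in oocytes and embryos, and the name did not pass the filter on low counts.

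In the comparison of sperm with MII oocytes, which asks how the paternal gamete differs from the egg, 11 of the 12 tested family names were called higher in sperm and 1, ssc-miR-34a, lower. A call required an adjusted p (q) under 0.05 and a log2 fold change of 1 or more in either direction. Of all 587 names tested in that contrast, 42.2% were called higher in sperm and 40.7% lower. In sperm against PN embryos the family counts were again 11 higher and 1 lower, beside 38.8% higher and 47.4% lower among all names. Names that passed the filter on low counts only through sperm had to be higher there, and so the counts were also read over the names that passed it in oocytes and embryos alone, a base chosen after the values were seen. This base held 390 of all names and 6 family names (ssc-miR-34c, ocu-miR-34b-3p_1ss10CT, cfa-miR-449a, mmu-miR-34c-3p_L-1_1ss16AG, cfa-miR-34b_R+1 and ssc-miR-34a). Against MII oocytes 5 of the 6 were higher in sperm and 1 lower, with a median log2 fold change of 6.21, while over the 390 names the median was -1.33, with 26.7% called higher and 52.8% lower. Against PN embryos 5 were again higher and 1 lower, with a median of 5.95, while over the 390 it was -2.16, with 23.6% called higher and 59.7% lower. This base leans the other way, since names that passed only through oocytes or embryos had to be lower in sperm. Over all 587 names the median log2 fold change was 0 against MII oocytes and -0.52 against PN embryos.

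For the 6 names at 0 in every MII oocyte library, the fold change was bounded by 5 counts per library, on the scale of full library totals. With the miR-205 names left out of the totals these bounds would be lower, as was the ratio of the family sum. Sperm was at least 172-fold higher than MII oocytes for mdo-miR-34b-5p, at least 45.2-fold for mml-miR-449b-3p_1ss8AG and at least 21.3-fold for mml-miR-449a-3p_L+1R-1. The bound was 15.6-fold for mdo-miR-34b-5p_R+1_1ss23TA, 2.84-fold for mdo-miR-34b-5p_R+1 and 2.34-fold for eca-miR-449b_R-4_1ss10GA. Against the deeper PN embryo libraries, the bounds of the last 5 were 83.4, 39.4, 28.8, 5.24 and 4.32. The rarer the name, the less these depths could show.

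**Figure D2:**
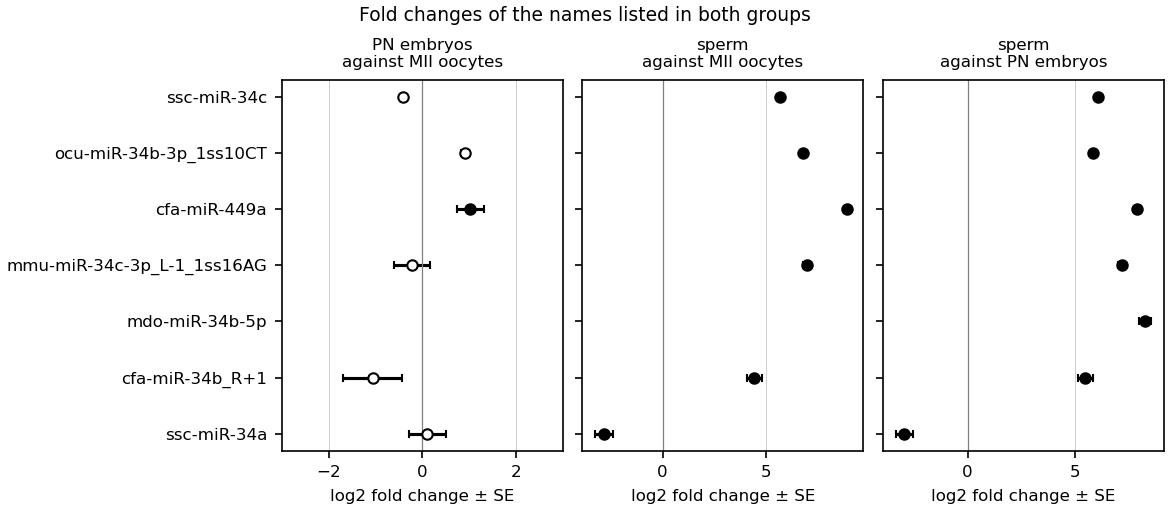
log2 fold changes (x axis, ± SE) of the family names listed in both groups of each comparison, with 1 panel per comparison and a separate scale for each panel. Filled points were called (q under 0.05 and a log2 fold change of 1 or more in either direction) and open points were not. mdo-miR-34b-5p has a point only for sperm against PN embryos (8.26 ± 0.27), since it was at 0 in MII oocytes, and ssc-miR-34a is the single name below 0 in both sperm panels.

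In PN embryos against MII oocytes, the comparison that asks what changes at fertilization, 1 of 12 tested family names was called higher and 0 lower. Over all 587 names 76 were called, 66 of them higher (11.2% of all names). Of the 12 names 5 were at 0 in all 6 libraries compared and could not be called, and 6 were listed in both groups. Of these 6, 1 was called higher, beside 13.6% of the 390 names that passed the filter without sperm. The called name was cfa-miR-449a, with a log2 fold change of 1.03 ± 0.28 (edgeR q = 0.0235), or 2.04-fold, between libraries that overlapped (the highest MII oocyte library was at 58.8 CPM and the lowest PN embryo library at 56.8). This call rested on counts of 7 to 75 and on few libraries. Without MII oocyte replicate 1 or replicate 2, q was 0.104 and 0.103, and without PN embryo replicate 2 or replicate 3 it was 0.0989 and 0.0894, by the same edgeR test. The fold change itself stayed above 0 in all 19 settings tried, between 0.79 and 1.41 on the log2 scale.

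At q under 0.05 without the fold threshold, 3 family names passed, against 25.2% of all names. Beside miR-449a these were ocu-miR-34b-3p_1ss10CT, higher in PN embryos with a log2 fold change of 0.92 ± 0.09 (edgeR q = 4.37e-05), and ssc-miR-34c, lower with -0.40 ± 0.07 (edgeR q = 0.00154). The first kept q under 0.05 in 19 of 19 settings, with a log2 fold change between 0.83 and 1.05. The second kept it in 18 of 19, and without MII oocyte replicate 1 its log2 fold change was -0.26 (edgeR q = 0.255). The other names listed in both groups were not called. ssc-miR-34a had a log2 fold change of 0.11 ± 0.39 (edgeR q = 0.975), mmu-miR-34c-3p_L-1_1ss16AG of -0.22 ± 0.39 (edgeR q = 0.806) and cfa-miR-34b_R+1 of -1.06 ± 0.64 (edgeR q = 0.293). mdo-miR-34b-5p, listed in 2 PN embryo libraries and no MII oocyte library, had q = 0.106 by edgeR, and its 6.49 and 18.7 CPM lie near what a listed 0 allows. The median log2 fold change of the 6 names listed in both groups was -0.05, and that of all names 0.08. Over the same libraries 2 of the 5 tested blood and leukocyte names were called higher in PN embryos and 3 were not called (11.2% higher over all names), and PN embryo libraries were deeper. The part of either in these differences was not tested.

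The make-up of the family within each library does not depend on the library total. ssc-miR-34c was 68.6%, 60.3% and 66.6% of family counts in MII oocytes, and the lowest of these had an exact 95% binomial interval of 56.5% to 64.1%. It was 44.9%, 48.1% and 44.1% in PN embryos and 46.3%, 43.9% and 44.1% in sperm. In MII oocytes it thus took most of the family's reads in each library, and in no library of the other groups did it do so. ocu-miR-34b-3p_1ss10CT was 25.9%, 28.9% and 21.4% in MII oocytes, 46.1%, 42.6% and 45.5% in PN embryos and 36.0%, 38.1% and 37.8% in sperm. Its highest interval in MII oocytes (25.5% to 32.6%) ended below its lowest in PN embryos (40.3% to 44.9%). The miR-449 names together were 1.79% ± 0.81 (SD, n = 3) of family counts in MII oocytes, 3.23% ± 0.84 in PN embryos and 12.2% ± 0.15 in sperm. ssc-miR-34a was 3.77% ± 1.52 in MII oocytes, 3.84% ± 1.33 in PN embryos and 0.0069% ± 0.0018 in sperm. The intervals allow for counting error alone, and reads copied by PCR and not tagged by molecule are not independent. The floor of 5 counts for a listed 0 is a fixed value and allows for no counting error.

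**Figure D3:**
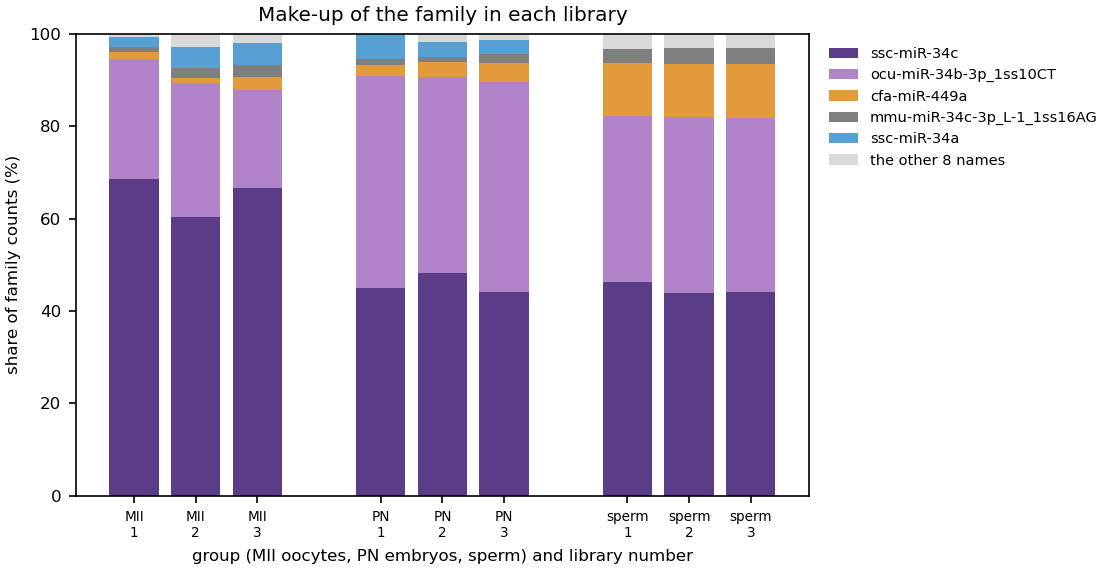
Share of family counts (y axis, %) taken by the 5 names listed in all 9 libraries and by the other 8 names together, with 1 bar per library. ssc-miR-34c fills 60.3% to 68.6% of the MII oocyte bars and 43.9% to 48.1% of the PN embryo and sperm bars, and cfa-miR-449a widens from 1.79% on average in MII oocytes to 11.5% in sperm.

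The order of the members differed between groups. In MII oocytes ssc-miR-34c stood above ocu-miR-34b-3p_1ss10CT, and both above ssc-miR-34a, without overlap of libraries, while ssc-miR-34a, mmu-miR-34c-3p_L-1_1ss16AG, cfa-miR-34b_R+1 and cfa-miR-449a overlapped from one to the next. In PN embryos the libraries of the leading pair overlapped (1114 ± 93.2 and 1088 ± 7.71 CPM), as did those of ssc-miR-34a and cfa-miR-449a. In sperm each member stood apart from the next except mdo-miR-34b-5p_R+1 from eca-miR-449b_R-4_1ss10GA, and ssc-miR-34a from mdo-miR-34d-5p_L-1R+1_1ss12GA. ssc-miR-34a was rank 3 in the family in MII oocytes and in PN embryos and rank 12 in sperm.

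Ratios between members within a library were compared in 15 tests, chosen after the values were seen. For each count of ssc-miR-34c, the libraries of MII oocytes held 0.377, 0.480 and 0.321 counts of ocu-miR-34b-3p_1ss10CT, those of PN embryos 1.03, 0.885 and 1.03, and those of sperm 0.776, 0.868 and 0.856. The 3 groups did not overlap, and PN embryos were the highest. The log2 ratio of PN embryos exceeded that of MII oocytes by 1.34 ± 0.18 (SE) and that of sperm was lower than that of PN embryos by -0.23 ± 0.09, each with a two-sided exact permutation p of 0.1 (0.125 after Benjamini-Hochberg adjustment over the 15), which is the smallest p that 3 libraries against 3 can give. For cfa-miR-449a the ratio to ssc-miR-34c was 0.0272 ± 0.0115 in MII oocytes (SD, n = 3), 0.0709 ± 0.0198 in PN embryos and 0.257 ± 0.0108 in sperm, again without overlap between groups. The exact permutation p was 0.1 for each pair of groups. Relative to ocu-miR-34b-3p_1ss10CT, however, cfa-miR-449a was at 0.0752 ± 0.0451 in MII oocytes and 0.0724 ± 0.0191 in PN embryos, libraries that overlapped (exact permutation p = 0.9), with a log2 difference of 0.09 ± 0.56 (SE), and at 0.308 ± 0.0058 in sperm. The pair of names higher in PN embryos thus kept overlapping proportions to each other, within an SE that also allows a change of 1 on the log2 scale. mmu-miR-34c-3p_L-1_1ss16AG gave 0.0307 ± 0.0125 counts per count of ssc-miR-34c in MII oocytes, 0.0331 ± 0.0133 in PN embryos and 0.0737 ± 0.0076 in sperm, so that sperm was apart from the other groups.

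**Figure D4:**
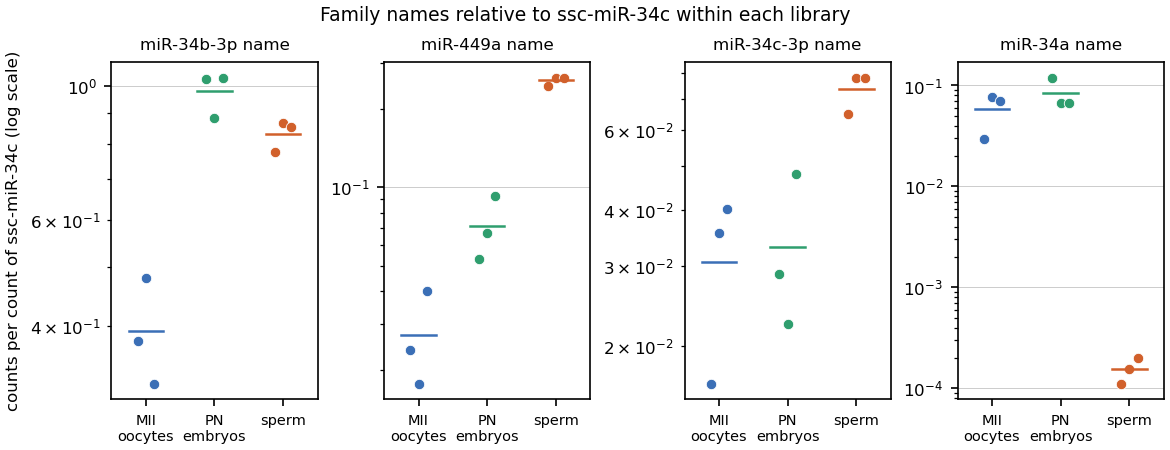
Counts of 4 family names per count of ssc-miR-34c in each library (y axes, log scale, a separate scale for each panel), with 1 point per library and a line at the group mean. The miR-34b-3p points of PN embryos (0.885 to 1.03) lie above those of sperm (0.776 to 0.868) and MII oocytes (0.321 to 0.480), whereas miR-449a and miR-34c-3p are highest in sperm and miR-34a lowest there.

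The proportions of sperm were set beside those of PN embryos by multiplying each library's ssc-miR-34c count by the mean ratio in sperm, again after the values were seen. For cfa-miR-449a this gave 116, 218 and 208 counts in the PN embryo libraries, where 24, 57 and 75 were listed. For ocu-miR-34b-3p_1ss10CT it gave 376, 708 and 677 counts, where 463, 751 and 838 were listed. For mdo-miR-34b-5p it gave 17.9, 33.6 and 32.2 counts, where 0, 13 and 5 were listed. For cfa-miR-34b_R+1 it gave 5.39, 10.1 and 9.70 counts, where 0, 18 and 20 were listed. For mmu-miR-34c-3p_L-1_1ss16AG it gave 33.2, 62.6 and 59.8 counts, where 13, 19 and 39 were listed. For ssc-miR-34a it gave 0.0704 to 0.132 counts, where 54, 57 and 54 were listed. These values restate the ratios on the scale of counts. They lay below the listed count in all 3 libraries for miR-34b-3p and miR-34a. They lay above it in all 3 for miR-449a, mdo-miR-34b-5p and miR-34c-3p, and on both sides of it for cfa-miR-34b_R+1. In the MII oocyte libraries they likewise lay above it in all 3 for miR-449a, mdo-miR-34b-5p and miR-34c-3p, and there for miR-34b-3p too. For miR-449a they were 140, 101 and 109 counts in MII oocytes, where 13, 7 and 17 were listed. In MII oocytes they again lay below it for miR-34a and on both sides of it for cfa-miR-34b_R+1. For mml-miR-449b-3p_1ss8AG it gave 4.69 counts in PN embryo replicate 1, within the 5 counts that a listed 0 allows. In replicates 2 and 3 it gave 8.83 and 8.45, above those 5 counts, and all 3 libraries listed the name at 0. Whether counting error spans that gap was not tested.

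Other miRNAs linked to male germ cells were read from a list of 7 (miR-122, miR-184, miR-191, miR-425, miR-469, miR-10a and miR-10b). It held 13 names, of which 11 were tested, and miR-469 was not listed in any library. Against MII oocytes 7 names were called higher in sperm and 2 lower (42.2% and 40.7% over all names). Against PN embryos again 7 were higher and 2 lower (38.8% and 47.4% over all names). Among the lower names was ssc-miR-184, with a mean of 267 CPM in MII oocytes, 488 in PN embryos and 11.3 in sperm. For this name sperm differed from MII oocytes by -4.59 ± 0.35 (SE) on the log2 scale (edgeR q = 6.11e-07). From PN embryos it differed by -5.37 ± 0.33 (edgeR q = 7.39e-08). ssc-miR-191_R-1 was at 3973 ± 245 CPM in MII oocytes, 5220 ± 134 in PN embryos and 69513 ± 1226 in sperm (SD, n = 3), a level in sperm close to that of ssc-miR-34c. ssc-miR-10b was at 17820 ± 998 CPM in MII oocytes, 15672 ± 194 in PN embryos and 27838 ± 709 in sperm. It was not called in any comparison, because its fold changes lay below the threshold. Sperm was higher than MII oocytes by 0.70 ± 0.04 on the log2 scale (edgeR q = 6.38e-08). It was higher than PN embryos by 0.96 ± 0.04 (edgeR q = 4.80e-09), and PN embryos differed from MII oocytes by -0.25 ± 0.04 (edgeR q = 0.0015). In PN embryos against MII oocytes 76 of all 587 names were called, 66 of them higher (11.2% of all names). Of the list, 1 name was called higher, 1 lower, and 9 were not called. ssc-miR-425-5p was the higher one, at 111 ± 3.47 CPM in MII oocytes, 269 ± 41.1 in PN embryos and 20091 ± 1026 in sperm, with a log2 fold change of 1.19 ± 0.15 in PN embryos (edgeR q = 2.13e-04). ssc-miR-122-5p_R-2, named because it was the lower one, was at 712 ± 76.7 CPM in MII oocytes, 36.3 ± 9.11 in PN embryos and 2042 ± 21.3 in sperm (log2 fold change -4.38 ± 0.15, edgeR q = 1.85e-08).

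Likeness to ssc-miR-34c was measured across the 9 libraries as the root mean square difference of log2(CPM + 1) after centring, over 527 names outside the family that shared their counts with no other name. The 5 nearest names had differences of 0.179 to 0.248 and included pal-miR-7b-2-3p, ssc-miR-7136-5p and cgr-miR-1973_L+4. All 5 were at 0 in oocytes and embryos and at 55.2 to 71.5 CPM in sperm, so that their likeness depends on the added 1 CPM. Within the family, among 586 tested names, the nearest were mdo-miR-34b-5p_R+1 at rank 6 (0.252) and eca-miR-449b_R-4_1ss10GA at rank 12 (0.296), which were also at 0 outside sperm. Of the names listed in all 9 libraries, ocu-miR-34b-3p_1ss10CT was rank 55 (0.603), mmu-miR-34c-3p_L-1_1ss16AG rank 67 (0.724), cfa-miR-449a rank 121 (1.38) and ssc-miR-34a rank 378 (4.11).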

How the data were processed

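Small RNA libraries of 3 MII oocyte, 3 PN embryo and 3 sperm samples were made by adapter ligation, reverse transcription, PCR and gel selection. The authors deposited 1 table of estimated counts per small RNA name, headed as raw, with no normalization. The submitters' processing notes name the build Sscrofa11.1. The aligner, miRNA caller, miRNA reference and count filter were not given in the sources used here. Of the values above 0, 19.8% were not whole (tolerance 1e-09), and 3 of the 117 family values were not. Over rows that shared no counts, 258 values equalled 5 and 33 were whole numbers from 1 to 4. Family names shared counts with 0 other rows.

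Rows of the same name were summed (1420 rows, 1313 names), rounded to whole numbers and compared in edgeR 4.0.16 (quasi-likelihood test, R 4.3.3) with TMM, the filterByExpr filter by group (minimum count 10), all 9 libraries in 1 fit and Benjamini-Hochberg adjustment over the 587 names kept. An SE is the size of the log2 fold change over the square root of F. The script was tested on simulated data. Shares had exact (Clopper-Pearson) 95% intervals. Alternatives included DESeq2 1.42.0, other scalings, filters and thinned counts. Chi-square per degree of freedom between replicate libraries was 2.20 to 12.7, above sampling noise. Any family name could be described, and outside it only a list of male germ cell miRNAs (the 3 most abundant, plus names behind small counts), cell type markers and the 5 names nearest in pattern. The members and lists were chosen with earlier results of these data known. The table held 0 further sample columns. Columns were assigned by the library names in the sample descriptions.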

Additional observations from a re-analysis of the deposited data

How the results depend on the processing

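Of 31 pairs of a family name and a comparison, 26 kept their direction and their side of the threshold in every setting tried. The pairs that did not were all in PN embryos against MII oocytes. Over 584 refitted values, 8 lost a call, 4 gained one and 4 changed sign. In sperm against MII oocytes and against PN embryos every tested family name kept its direction and call, with 12 names called as reported, 13 with no filter, and 10 with isomiR variants summed or counts thinned to equal depth (fewer names tested). In PN embryos against MII oocytes, where 1 name was called, the count was 2 by the Wald test of DESeq2 and 3 with no fold threshold. It was 0 at the stricter q of 0.01, with at least 10 counts in 3 libraries, with counts thinned, with only the groups compared in the fit, or with the replicate number as a block. Leaving out 1 library gave 0 to 2. The 0 came without PN embryo replicate 2 or 3, and the 2 without PN embryo replicate 1. The cause was not tested. Without MII oocyte replicate 1 or 2 the count stayed at 1, but the called name was ocu-miR-34b-3p_1ss10CT in place of cfa-miR-449a. Replicate numbers did not pair the libraries (deviations of same-numbered libraries correlated at -0.207 to 0.0239), so the block is a shared number only.

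Signs changed for mmu-miR-34c-3p_L-1_1ss16AG in PN embryos against MII oocytes (-0.22 as reported, -0.61 to 0.075 with 1 library left out, and above 0 without MII oocyte replicate 3 or PN embryo replicate 2, where it was 0.0047) and for ssc-miR-34a (0.11 as reported, -0.17 to 0.32 with 1 library left out, and below 0 without MII oocyte replicate 1, at -0.11, or PN embryo replicate 1), neither of which was called. The log2 ratio of the family sum in PN embryos against MII oocytes was 0.18, and 0.10 with DESeq2 size factors and 0.11 with TMM totals, the latter added after the data were seen. In sperm against MII oocytes it was 6.14, and 6.40, 6.20 and 5.22 with size factors, TMM totals and no miR-205 names. In sperm against PN embryos it was 5.97, and 6.30, 6.10 and 5.10. Depth limits the names at 0 in oocytes and embryos, where fewer than about 5 counts were not reliably listed.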
